A study of Rattus norvegicus with 18 samples.

Results

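The endothelin system genes were measured in the kidneys of 2 rat strains. The members were chosen by gene symbol, not by their values: every probe set whose platform annotation gives a single symbol, and that symbol is Edn1, Edn3, Ednra, Ednrb or Ece1. This gave 6 probe sets of 3 genes among 26202 probe sets in all: 1 for Edn1, 2 for Edn3 and 3 for Ece1. A probe set is a group of short probes that reads 1 transcript, or several where its probes are shared. The annotation used here paired no probe set with Ednra or Ednrb, the endothelin receptors, so both are not analysed here.

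Both strains share the genetic background of the Dahl salt-sensitive (S) rat, an inbred model of hypertension that develops with dietary salt. The congenic strain carries in addition a stretch of chromosome 9 from a salt-resistant rat, and its labels place a blood pressure quantitative trait locus there. Each strain gave 3 samples of total RNA from kidney, numbered 1 to 3 in the labels, and each was hybridised to 3 kinds of array, named type A, type B and type C in what follows. The labels give no age, sex or diet and do not state that the samples come from different animals, so the p-values rest on sample-to-sample spread that may be technical. In the GRCr8 assembly table Edn1 is on chromosome 17, Edn3 on chromosome 3 and Ece1 on chromosome 5, so none of the measured members is on the chromosome that carries the congenic segment.

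Endothelins are short vasoactive peptides cut from larger precursors. Furin-like proteases first release an inactive intermediate, and endothelin-converting enzyme then makes the active peptide. Endothelin-1 acts on the ETA receptor of vascular smooth muscle, where it constricts, and on the ETB receptor, which in endothelium drives nitric oxide release and in the collecting duct lowers sodium reabsorption. In kidney the inner medullary collecting duct is a major source of endothelin-1, beside endothelium. In a bulk kidney sample, fewer cells of a type and less RNA per cell cannot be told apart.

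Promoter sequences of Edn1 and Ece1 are shown because these genes are the best-known ligand and the converting enzyme. Of the motifs marked, GATA and the hypoxia response core are those of regulators described further on, GATA factors and Hif1a. They come from RefSeq on GRCr8 and run from 250 bases before to 50 bases after the annotated gene start. The table matched 2 of the 3 measured members, and Edn3 was not among them. Capitals mark matches, on either strand, to the GATA motif GATAA, the hypoxia response core ACGTG, the TATA box TATAAA, the GC box GGGCGG and the CCAAT box CCAAT.
Edn1, chr17:22666638-22666937, minus strand: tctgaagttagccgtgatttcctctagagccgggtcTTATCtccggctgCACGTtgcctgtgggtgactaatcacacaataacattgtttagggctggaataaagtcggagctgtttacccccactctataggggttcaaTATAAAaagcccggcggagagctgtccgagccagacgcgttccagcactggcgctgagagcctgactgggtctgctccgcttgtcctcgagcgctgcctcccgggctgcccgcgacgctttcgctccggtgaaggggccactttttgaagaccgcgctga
Ece1, chr5:155360781-155361080, plus strand: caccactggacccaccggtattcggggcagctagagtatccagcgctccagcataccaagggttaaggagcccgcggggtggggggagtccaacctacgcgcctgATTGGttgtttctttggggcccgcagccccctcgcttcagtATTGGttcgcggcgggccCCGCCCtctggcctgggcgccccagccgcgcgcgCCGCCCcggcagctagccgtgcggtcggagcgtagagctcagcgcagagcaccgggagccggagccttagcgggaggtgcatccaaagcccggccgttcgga

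The Edn1 window held 1 match each to the GATA motif (26.5% of 33469 promoters of the same length hold it), the hypoxia core (19.3%) and the TATA box (14.2%), and none to the GC or CCAAT box. The Ece1 window held 2 GC boxes (33.1% of promoters hold at least 1) and 2 CCAAT boxes (37.5%), and none of the other motifs. An exact match to the AP-1 motif TGANTCA, in 7.33% of promoters, was in neither window. The Edn1 window holds a near match, tgactaa, which was not counted. The GC content was 57.3% for Edn1 and 69.3% for Ece1. Matches to different motifs did not overlap, and a match is a description of the letters, not a binding site.

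Edn1 encodes the precursor of endothelin-1. Its probe set, M64711_at on type A, read 3.4, 6.6 and 1.4 signal units in Dahl S samples 1, 2 and 3. It read 11.7, 3.8 and 12.5 in the congenic samples. Congenic samples 1 and 3 stood above all Dahl S samples, but congenic sample 2 fell within their range, so the strains overlapped. Every value was below 21.2, the level under which probe sets of type A were not tested (the 40th percentile of mean signal), and the mean lay at percentile 16 of the type. Dahl S sample 3 was below the floor of 3.1, to which the lowest values of type A were raised. The difference, congenic minus Dahl S, was +1.00 log2 units (SE 0.58, 95% interval -0.46 to 2.46, n = 3 per strain) and has no p. At these levels the signal was not shown to be above background, and the size of the difference followed the floor: it was +0.28 with the floor at the 25th percentile.

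Edn3 encodes the precursor of endothelin-3, the ligand best known for its role with ETB in neural crest development. Its brighter probe set, E02223cds_f_at on type A, read 35.9, 23.3 and 58.4 in Dahl S samples 1 to 3, and the congenic signals were 39.9, 28.5 and 13.6. The suffix f marks probes shared within a family of similar sequences. Congenic sample 3 alone lay below the Dahl S range. The geometric mean was 36.6 in Dahl S and 24.9 in congenic kidneys, a difference of -0.55 log2 units (SE 0.57, 95% interval -1.86 to 0.76). In limma the unadjusted p was 0.36 and the Benjamini-Hochberg adjusted p was 0.9997. The difference was -0.12 without congenic sample 3 and -0.22 without Dahl S sample 3, and it was larger without Dahl S sample 2 (-0.88) or congenic sample 1 (-0.89). Blood cell markers were also highest in Dahl S sample 3 and lowest in congenic sample 3: the alpha-globin Hba-a1 read 7613.3, 9870.9 and 36676.3 in Dahl S against 11704.4, 9901.7 and 5917.3 in congenic kidneys. Over the list of 6 tested blood cell genes, 5 lower and 1 higher, summed signals were 12585 to 52231 in Dahl S and 10113 to 19132 in congenic samples. Their part in the Edn3 difference was not tested.

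The other Edn3 probe set, S39779_at, gave Dahl S signals of 10.9, 3.4 and 7.5 and congenic signals of 10.8, 4.4 and 3.5. All 6 values were below the filter level of 21.2, and sample 1 was the highest of its strain in both. It differed by -0.25 log2 units (SE 0.62), was not tested, and its sign turned when Dahl S sample 1 (+0.12) or congenic sample 3 (+0.08) was left out. Over the 6 samples the log2 signals of both Edn3 probe sets, which share arrays, had a Pearson r of 0.75.

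**Figure D1:**
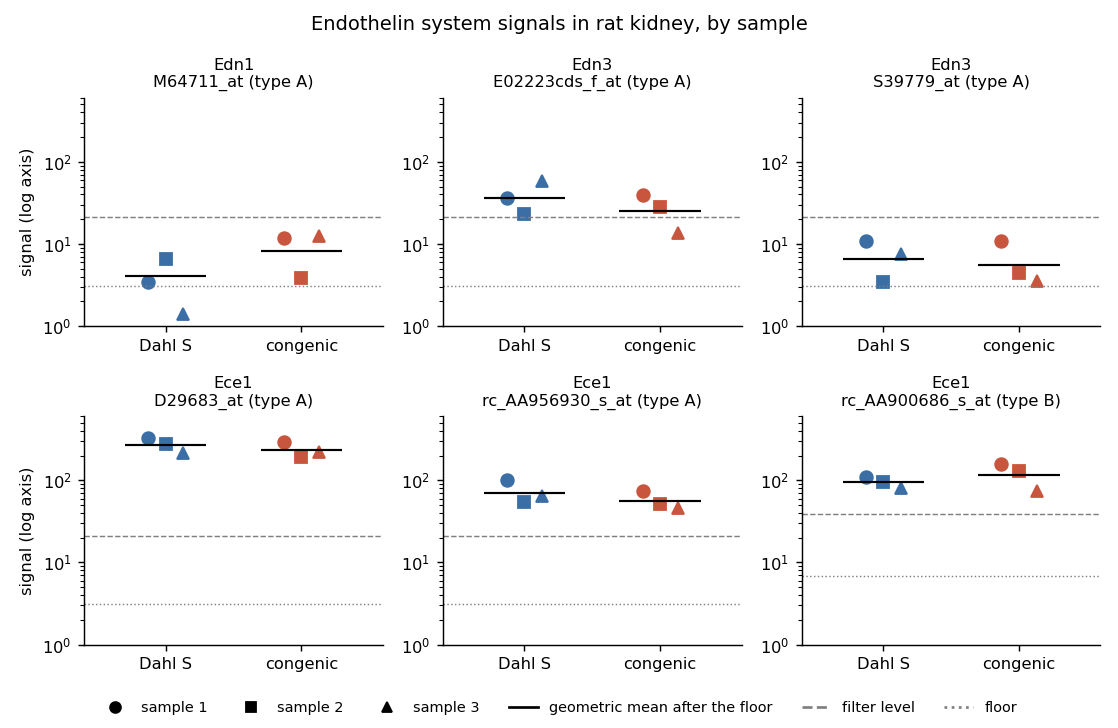
Signal of each endothelin system probe set on a log axis, with 1 point per sample (circles, squares and triangles for samples 1, 2 and 3), black bars at the geometric mean after the floor, dashed lines at the filter level and dotted lines at the floor of the array type. The Edn1 points all lie under the filter level of 21.2, and for each Ece1 probe set the circle is the highest point of its strain.

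Ece1 encodes endothelin-converting enzyme 1, the membrane metalloprotease that produces active endothelin-1, and was the member with signals above the filter level in every sample. Its probe set D29683_at on type A, at percentile 83.4 of the type, read 328.6, 276.6 and 214.9 in the Dahl S samples. It read 294.6, 190.3 and 220.4 in the congenic samples. The ranges overlapped: only congenic sample 2 was below the lowest Dahl S sample. The geometric mean was 269 in Dahl S and 231 in congenic kidneys, a difference of -0.22 log2 units (SE 0.23, limma unadjusted p = 0.374, adjusted p = 0.9997). The 95% interval ran from 0.591 to 1.25 times the Dahl S level, and the SE lay at percentile 31.1 of the tested probe sets, so this was the most precise of the 4 tested members. The difference was -0.08 without Dahl S sample 1 or without congenic sample 2, and -0.40 without congenic sample 1.

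A second Ece1 probe set on type A, rc_AA956930_s_at, gave Dahl S signals of 100.5, 54.9 and 64.0 and congenic signals of 74.6, 50.9 and 46.0. Congenic samples 2 and 3 lay below every Dahl S sample and congenic sample 1 did not. The difference was -0.34 log2 units (SE 0.35, limma unadjusted p = 0.361, adjusted p = 0.9997), and -0.08 without Dahl S sample 1.

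The Ece1 probe set of type B, rc_AA900686_s_at, went the other way. Dahl S samples 1 to 3 gave 111.3, 94.2 and 80.8 and congenic samples 1 to 3 gave 158.3, 128.7 and 74.8, with congenic sample 3 the lowest of all 6. The difference was +0.28 log2 units (SE 0.38, limma unadjusted p = 0.473, adjusted p = 0.9997), and it was +0.05 without congenic sample 1 and +0.59 without congenic sample 3. Its log2 signal relative to D29683_at was 0.50 higher in the congenic samples (exact permutation p = 0.3, two-sided), and relative to rc_AA956930_s_at 0.62 higher (exact permutation p = 0.2). The mean of the 3 probe sets per sample differed by -0.09 log2 units (exact permutation p = 0.7). These 3 comparisons were chosen after the values were seen, their Benjamini-Hochberg adjusted exact p values were 0.45, 0.45 and 0.7, and 3 samples against 3 cannot give an exact p under 0.1. The probe sets of Ece1 therefore gave no common direction between the strains.

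The Ece1 signals also differed by sample number. Sample 1 was the highest of its strain for all 3 Ece1 probe sets in both strains, by a mean of 0.48, 0.69 and 0.52 log2 units over samples 2 and 3 for D29683_at, rc_AA956930_s_at and rc_AA900686_s_at. The arrays of the samples numbered 1 also had the highest median signals of their type, 45.5 and 45.9 on type A against 34.8 to 39.4 in the others, and 78.5 and 78.3 on type B against 60.4 to 71.8. The part of this in the Ece1 values was not tested. Without both samples numbered 1 the Ece1 differences were -0.25, -0.29 and +0.17. Pearson's r over the 6 samples was 0.78 between both type A probe sets, and 0.33 and 0.42 between each of them and the type B probe set.

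Of the 4 tested endothelin system probe sets, limma called 0 at an adjusted p of 0.05 and 0 at an unadjusted p under 0.05. Over all 15721 tested probe sets it called 0 (0%) at the adjusted threshold and 391 (2.49%) at an unadjusted p under 0.05. In none of the 4 were the signals of the strains without overlap, which was the case for 7.08% of tested probe sets. Against so low a background 0 of 4 sets the members apart in neither direction, and the intervals are wide: the tested Edn3 probe set could lie between 0.275 and 1.69 times the Dahl S level. The median absolute log2 difference over all tested probe sets was 0.18, and 12.5% of them differed by at least as much as this Edn3 probe set.

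**Figure D2:**
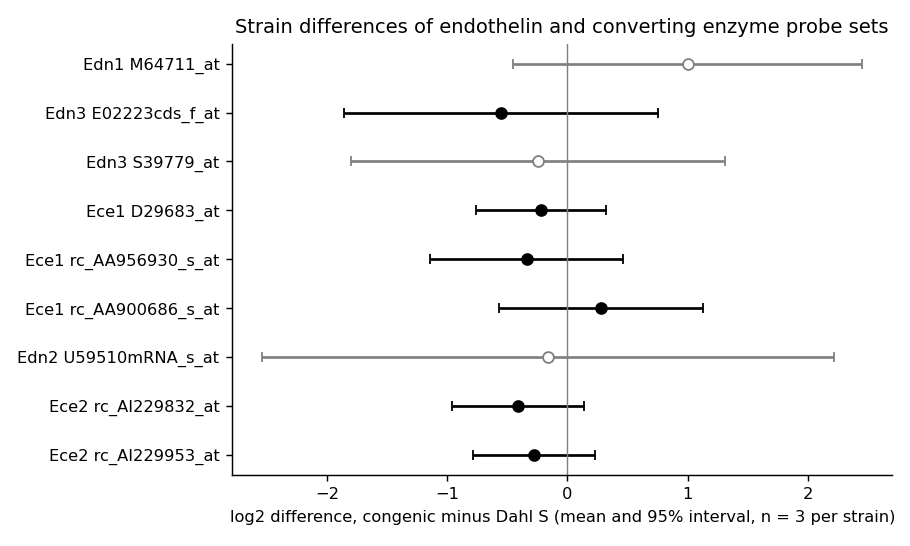
Log2 difference (congenic minus Dahl S) with its 95% interval for the probe sets of Edn1, Edn3 and Ece1 and of the related genes Edn2 and Ece2, 3 samples per strain. Filled points were tested and open grey points lay under the filter level; all 9 intervals include 0.

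Edn2 and Ece2 belong to the same families and to the list of peptide processing and breakdown genes. Edn2, the precursor of endothelin-2, read 25.7, 8.0 and 11.2 in Dahl S against 41.6, 7.3 and 5.4 in congenic kidneys. It was below the filter level of 21.2 in all but sample 1 of each strain and was not tested. Ece2 encodes a second converting enzyme that works at acidic pH. Its probe set rc_AI229832_at on type C read 88.1, 105.3 and 112.0 in Dahl S against 74.9, 74.8 and 78.9 in congenic kidneys. All 3 congenic values lay below all Dahl S values, as in 3.49% of tested probe sets, and the difference was -0.41 log2 units (SE 0.24, limma unadjusted p = 0.125, adjusted p = 0.9997). The brighter Ece2 probe set, rc_AI229953_at, read 122.9, 110.1 and 156.0 against 101.7, 110.4 and 105.9, which overlapped in congenic sample 2, and differed by -0.28 (SE 0.22). Neither passed the threshold. The Ece2 probe set without overlap was singled out after its values were seen.

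The list of peptide processing and breakdown genes, Ece2 included, showed no shared direction. Of 8 tested genes of this list, each represented by its brightest probe set, 3 were higher and 5 lower, with a median of -0.07 log2 units against -0.01 over all 8168 genes tested. Limma gave 0 with an unadjusted p under 0.05 (192 of 8168 genes, 2.35%, over all). Mme, the brush border protease neprilysin, which degrades endothelin-1, read 639.3, 755.8 and 1159.4 in Dahl S against 865.8, 995.6 and 1139.3 in congenic kidneys, a difference of +0.27 (SE 0.23, limma unadjusted p = 0.265). A Mme probe set on type A differed by +0.11. Furin, which cuts the precursors, differed by -0.07 (SE 0.20), and Cma1, a mast cell protease, by -0.39 (SE 0.33). Ctsa, a lysosomal carboxypeptidase that inactivates endothelin-1, differed by -0.07 (SE 0.15).

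Signalling genes downstream of the receptors were split. Of 21 tested genes of the receptor coupling list 9 were higher and 12 lower, with a median of -0.03. Limma gave 0 with an unadjusted p under 0.05. The smallest p values belonged to Gnai2, an inhibitory G protein alpha subunit (-0.39, SE 0.22, unadjusted p = 0.109), and Gna11, a G protein alpha subunit that activates phospholipase C (+0.61, SE 0.39, unadjusted p = 0.15). The other 3 Gnai2 probe sets differed by -0.35, -0.10 and -0.02. Gnai2 read 745.4, 879.9 and 1226.4 in Dahl S against 582.5, 777.0 and 796.3 in congenic kidneys. Congenic samples 2 and 3 fell inside the Dahl S range.

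Among effectors of ETB signalling in collecting duct and endothelium, 11 of 16 tested genes were higher and 5 lower, with a median of +0.12, and limma again gave 0 with an unadjusted p under 0.05. Sgk1, the aldosterone-induced kinase that keeps the epithelial sodium channel at the membrane, read 297.1, 278.3 and 238.8 in Dahl S against 439.2, 241.7 and 573.3 in congenic kidneys (+0.54, SE 0.30, unadjusted p = 0.108). Nedd4l, the ubiquitin ligase that removes that channel, differed by +0.28 (SE 0.22). The endothelial nitric oxide synthase Nos3 read 116.4 to 187.6 in Dahl S and 140.9 to 159.1 in congenic kidneys, and its 4 tested probe sets differed by -0.31, -0.19, -0.04 and +0.11. Nos1, the neuronal nitric oxide synthase, which the collecting duct also expresses, differed by -0.47 (SE 0.45), and its other tested probe set by +0.15 (SE 0.49).

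Transcription factors and signals known to regulate Edn1 were higher in 8 and lower in 11 of 19 tested genes, with a median of -0.07. With the mean of a gene's tested probe sets in place of its brightest one the median was -0.23. Limma gave 0 with an unadjusted p under 0.05. Jun, the AP-1 subunit, read 256.9, 529.2 and 494.0 in Dahl S against 213.3, 228.8 and 348.2 in congenic kidneys (-0.66, SE 0.31, unadjusted p = 0.0661), while its other 3 probe sets read -1.50, -0.02 and +0.05. Nfkb1 encodes a subunit of the inflammatory factor NF-kappaB. It read 104.7, 92.8 and 89.9 against 85.5, 55.0 and 73.4, with no overlap between the strains (7.62% of all genes tested), and differed by -0.45 (SE 0.27, unadjusted p = 0.131). Of 8 tested leukocyte markers 6 were also lower and 2 higher, with a median of -0.34, summed signals of 3782 to 4787 in Dahl S and 3529 to 3729 in congenic samples, and Coro1a, an actin regulator of blood cells, at -0.81 (SE 0.33, limma unadjusted p = 0.0361). Their part in the Nfkb1 and Jun values was not tested. Gata2 (-0.23, SE 0.27) and Hif1a (+0.19, SE 0.32), whose motifs are marked in the Edn1 promoter, differed by less than 1 SE, and the other 2 Hif1a probe sets by -0.42 (SE 0.59) and -0.04 (SE 0.37). Gata4, another GATA factor of the list, differed by -0.71 (SE 0.48, limma unadjusted p = 0.177), and its dim, untested probe set by +0.23 (SE 0.32).

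**Figure D3:**
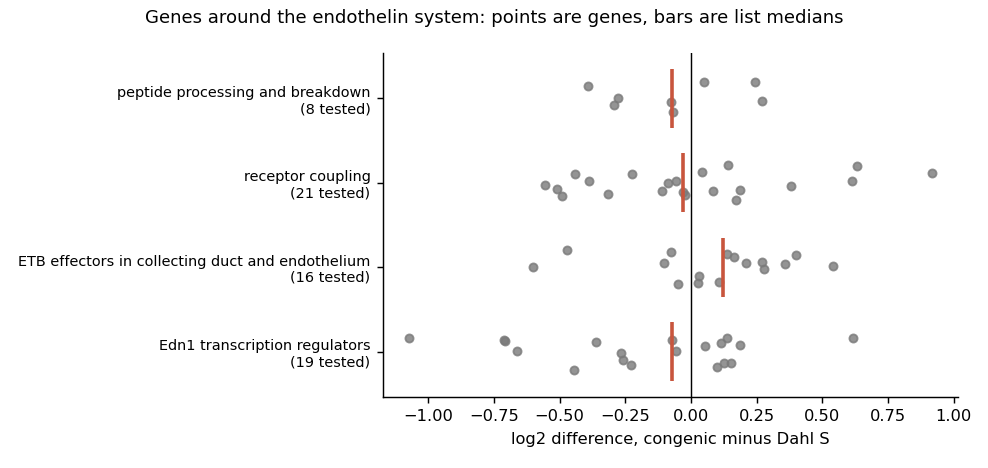
Log2 difference (congenic minus Dahl S) of each tested gene in 4 lists around the endothelin system, 1 point per gene, with a bar at the list median. The medians lie between -0.07 and +0.12, and in each list genes lie on both sides of 0.

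Markers of the cells that make or receive endothelins were present in both strains. Of 14 endothelial markers 13 were tested, 10 higher and 3 lower in congenic kidneys, with a median of +0.11. Summed signals were 2951 to 3746 in Dahl S and 3770 to 4145 in congenic samples, and bright genes weigh most in them. The mean log2 signal of the list overlapped, 7.09 to 7.28 in Dahl S against 7.25 to 7.68 in congenic samples. Eng, at 1195.2 to 1722.3 in Dahl S and 1626.6 to 1693.7 in congenic samples, was the brightest of these 13 markers. Sox17, an endothelial transcription factor, was the 1 of them with an unadjusted limma p under 0.05 (+1.27, SE 0.36), but a second tested Sox17 probe set differed by +0.18 (SE 0.57) and 2 dim ones by -0.24 and +0.25, while the junction proteins Pecam1 (-0.40, SE 0.28) and Cdh5 (-0.28, SE 0.20) were lower, with second tested probe sets at -0.12 and -0.12. Of 14 collecting duct markers 11 were tested, 8 higher and 3 lower, with a median of +0.12. The water channel Aqp2 read 511.1 to 672.2 in Dahl S and 687.2 to 697.5 in congenic kidneys. Markers of other kidney cell types were counted too: 9 of 10 proximal tubule markers (median +0.15), 5 of 6 thick limb and distal tubule markers (median +0.14) and 3 of 4 podocyte markers (median +0.20) were higher, each with 0 at an unadjusted limma p under 0.05. Of 10 tested smooth muscle and mesangial markers 6 were lower and 4 higher, with summed signals of 2224 to 2865 in Dahl S and 1961 to 2604 in congenic samples, and the smooth muscle actin Acta2 was lower (-0.67, SE 0.27, limma unadjusted p = 0.0385, with its other 3 probe sets at -0.52, -0.20 and -0.22). The strains did not overlap for 4 of 10 proximal tubule, 3 of 13 endothelial and 2 of 11 collecting duct markers, Aqp2 among them. Nor did they overlap for 3 of 8 leukocyte markers, Cd68, Cd74 and Coro1a, all lower in congenic kidneys. The same held for 1 marker each of the thick limb and distal tubule (Kcnj1), podocyte (Podxl), and smooth muscle and mesangial (Tagln) lists. Kcnj1 and Podxl are not further genes: Kcnj1 is also counted among the collecting duct markers and Podxl among the endothelial ones. Of 6 tested blood cell markers 0 were without overlap. Over all genes tested the share without overlap was 7.62%. None of these markers passed the adjusted threshold. Their part in the endothelin values was not tested. Slc34a1, the phosphate transporter of the proximal tubule, read 10806.5 to 16451.4 over the 6 samples, so a defining kidney marker was present. The log2 ratio of 3 prime to 5 prime GAPDH control signal, a sign of RNA quality, was 0.31 to 0.68 in Dahl S and 0.11 to 0.63 in congenic samples, which overlapped. For the beta-actin control it was higher, 0.49 to 1.10 in Dahl S and 0.50 to 1.35 in congenic samples, which also overlapped.

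The genes whose signal over the 6 samples was most like that of a member were found by Pearson's r of log2 signal among the tested probe sets of the same array type. For Ece1 (D29683_at) they were Ppp1ca, a catalytic subunit of protein phosphatase 1 (r = 0.99), Ap2s1, a subunit of the endocytic adaptor AP-2 (r = 0.99), and Calr, the endoplasmic reticulum chaperone calreticulin (r = 0.99). Ppp1ca read 898.1, 759.3 and 610.3 in Dahl S against 836.2, 564.8 and 660.3 in congenic kidneys, the same order of samples within each strain as Ece1. For Edn3 (E02223cds_f_at) they were Fgfbp3, a fibroblast growth factor binding protein (r = 0.99), Cox6c, a cytochrome c oxidase subunit (r = 0.97), and Lct, the intestinal disaccharidase lactase (r = 0.95). With 6 samples high values are common: 114 of 5243 probe sets reached r = 0.9 with Ece1 and 33 with Edn3, and all share the same arrays. Edn1 was below the filter level and was not compared.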

How the data were processed

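Total kidney RNA of 3 Dahl S and 3 congenic samples was hybridised to 3 array types each, and groups and numbers came from the sample titles. The authors deposited a linear intensity for each probe set; how probes were summarised is not given in the sources used. From the values, each array had a trimmed mean (2% at each end) of 150.1 to 150.2, so no further scaling was applied. After leaving out 59 controls per type, values below the 10th percentile of a type (3.1, 6.8 and 4.9 on A, B and C) were raised to it and log2 was taken. Probe sets below the 40th percentile of mean log2 signal were not tested, which left 15721 of 26202. The strain difference was fitted in R 4.3.3 by limma 3.58.1 (lmFit, then trended eBayes), 1 fit per type, with the Benjamini-Hochberg adjustment over all types. Untested members have a difference and SE from the same model without the filter. A gene's brightest tested probe set represents it in lists. The number of arrays limits the precision.

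The text names every member probe set, from each pathway list the genes with an unadjusted p under 0.05 or else the 2 with the smallest p, and the 3 genes most like a member; other list genes named in the text were picked with their values in view. The members and lists were chosen with earlier results of these data known. The fit was tested on simulated data. A planned ratio of the receptors was not run, since both are not analysed here. Plots were made in Python 3.11.15 using matplotlib 3.10.9.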

Additional observations from a re-analysis of the deposited data

How the results depend on the processing

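In all 18 alternatives (floor, filter, scaling, variance model, sample number, samples left out, adjustment) limma called 0 probe sets at the adjusted threshold and 0 endothelin system probe sets at an unadjusted p under 0.05; adjusted p values of members ran from 0.938 to 1. The number of all probe sets with an unadjusted p under 0.05, 391 as reported, was 798 without the filter, 259 with the filter at the 60th percentile, 704 with a term for the samples numbered 1, and 345 to 600 with 1 sample left out, the highest without congenic sample 1. With the sample number as a replicate block it was 819. Deviations of both samples numbered 1 correlated at 0.45, against -0.20 to -0.30 between either of them and samples of other numbers. Deviations from a mean of 3 samples sum to 0, so these negative values are not independent of the 0.45. Same-numbered samples 2 and 3 correlated at 0.08 and 0.18, against 0.15 between number 2 and number 3. Beyond the samples numbered 1, the numbers showed little pairing. Without the filter all 6 member probe sets were tested, with the filter at the 60th percentile 2, and otherwise 4. Edn1 therefore had a p only without the filter, an unadjusted p of 0.14 (adjusted p = 1 in limma). With 1 sample left out the Edn1 difference, from signals near the floor, ran from +0.70 (SE 0.63) to +1.56 (SE 0.39, without congenic sample 2). The Edn3 probe set S39779_at ran from -0.73 to 0.12 with 1 sample left out, and the other 5 members kept their direction in all 18. The median of the Edn1 regulators was -0.23 with all tested probe sets of a gene averaged; the cause was not tested. Alternatives for the receptor ratio were not run. Signals near the floor limit Edn1 and the dimmer Edn3 probe set.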
